A study of Mus musculus with 12 samples.

Results

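The data describe 10 genes that carry glucose into the cell and through glycolysis, in mouse ZHBTc4 embryonic stem cells with and without Phf6. They were the glucose transporters Slc2a1 and Slc2a3, the enzymes Hk1, Hk2, Pfkp, Aldoa, Aldoc, Pgk1 and Ldha, and the kinase Pdk1. The members were taken by gene symbol from the gene tables of all libraries, and the 10 symbols matched 11 of the 53379 genes listed. The extra gene was a second Ensembl entry for Aldoa (ENSMUSG00000114515.2), which held 4 to 23 counts per library and was called in no comparison. All 11 passed the filter on low counts, with 17884 genes tested in all. The study measured RNA in 12 libraries, 2 per group. The groups were Phf6 KO cells after 2 days of doxycycline (given as 0.5 µg/ml per sample, though the protocol text has mg/ml), Phf6 KO cells given all-trans retinoic acid over 4 days with LIF withdrawn, untreated Phf6 KO cells, and the same 3 conditions in wild-type (WT) cells. The retinoic acid concentration is written as 10 mM in the protocol text. All cells came from strain 129/Ola and had passed from feeder cells to feeder-free culture with LIF. ZHBTc4 is a conditional Oct4 line: its own Oct4 alleles are disrupted and an Oct4 transgene is shut off by doxycycline, so the doxycycline groups are Oct4-depleted and both lines carry this background. The labels do not say whether the 2 libraries of a group came from separate cultures or how many knockout clones were used, so the p-values measure the spread between these libraries, which may be technical.

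Glucose enters mammalian cells through facilitative transporters of the SLC2A (GLUT) family, and hexokinases trap it as glucose 6-phosphate. Phosphofructokinase, aldolase and phosphoglycerate kinase carry it on towards pyruvate. Lactate dehydrogenase turns pyruvate into lactate, whereas PDK1 limits the use of pyruvate within the mitochondrion by phosphorylating the pyruvate dehydrogenase complex. Pluripotent stem cells are known for high glycolytic activity, and most of these genes are known targets of the hypoxia-inducible factors and MYC, whose binding motifs share the cores ACGTG or GCGTG (hypoxia response element) and CACGTG (E-box).

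RefSeq promoter windows (GRCm38.p6) were found for 9 of the 10 genes; the transporter Slc2a3 was not among them. Windows of 250 bases before the transcription start were read, and the start nearest the annotated 5′ end of the gene was taken. For Ldha that start lay 4329 bases, and for Aldoa 304 bases, inside the annotated gene, so both windows lie within their annotated genes. The windows shown are those of Slc2a1, the gene that was higher under both treatments in both lines, of Hk2, Pfkp and Pdk1, which were lower under both treatments in both lines, and of Ldha, which showed a large decrease with doxycycline. Capitals mark every ACGTG or GCGTG, read on either strand, so that CACGT and CACGC are the same motifs on the opposite strand. They lie at chr4:119108495-119108744 (plus strand), chr6:82774455-82774704 (minus), chr13:6648772-6649021 (minus), chr7:46845554-46845803 (plus) and chr2:71872974-71873223 (plus).
Slc2a1: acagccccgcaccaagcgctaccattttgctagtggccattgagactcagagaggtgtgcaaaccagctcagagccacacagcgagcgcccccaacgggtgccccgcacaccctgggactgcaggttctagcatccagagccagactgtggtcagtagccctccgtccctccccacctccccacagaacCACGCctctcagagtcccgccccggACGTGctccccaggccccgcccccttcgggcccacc
Hk2: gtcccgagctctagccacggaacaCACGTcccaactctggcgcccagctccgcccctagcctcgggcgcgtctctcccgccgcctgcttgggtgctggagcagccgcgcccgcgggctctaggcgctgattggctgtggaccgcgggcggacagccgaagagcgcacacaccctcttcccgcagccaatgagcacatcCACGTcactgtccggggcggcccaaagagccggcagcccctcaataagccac
Pfkp: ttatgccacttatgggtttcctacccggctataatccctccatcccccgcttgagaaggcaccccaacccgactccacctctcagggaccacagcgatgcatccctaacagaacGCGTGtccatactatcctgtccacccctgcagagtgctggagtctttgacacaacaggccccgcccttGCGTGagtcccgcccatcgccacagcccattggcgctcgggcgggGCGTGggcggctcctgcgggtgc
Ldha: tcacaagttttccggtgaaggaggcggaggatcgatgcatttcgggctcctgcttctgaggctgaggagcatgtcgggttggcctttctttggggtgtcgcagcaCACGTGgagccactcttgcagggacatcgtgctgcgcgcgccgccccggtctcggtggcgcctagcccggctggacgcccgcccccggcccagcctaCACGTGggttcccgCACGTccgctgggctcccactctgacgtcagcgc
Pdk1: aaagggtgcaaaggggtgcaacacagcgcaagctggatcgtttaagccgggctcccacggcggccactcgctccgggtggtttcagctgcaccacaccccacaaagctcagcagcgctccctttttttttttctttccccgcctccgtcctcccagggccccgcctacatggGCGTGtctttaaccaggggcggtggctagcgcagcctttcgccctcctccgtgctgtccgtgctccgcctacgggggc
The Slc2a1 window held 1 ACGTG and 1 GCGTG, the Hk2 window 2 ACGTG, the Pfkp window 3 GCGTG and the Pdk1 window 1 GCGTG. The Ldha window held 5 ACGTG matches, 4 of them within 2 palindromic CACGTG motifs. Pgk1 had 2 ACGTG, Aldoc 1 GCGTG, and the windows of Hk1 and Aldoa had no match. Of all 32851 RefSeq windows of this length, 16.6% held ACGTG, 28.2% held GCGTG, 6.02% held CACGTG, and 38.6% held ACGTG or GCGTG. The window of Slc2a1, the only transporter with a window, carried short motifs also found in windows of genes that fell. A match says nothing about whether a factor bound there, and the part of these motifs in the changes was not tested.

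Library totals ranged from 15799517 to 21441996 counts, and a count of 0 allowed up to 0.132 to 0.204 CPM (counts scaled to a common library total). CPM values here are scaled with TMM factors, which correct for the makeup of each library. Phf6 itself averaged 7.78 CPM in KO and 32.5 CPM in WT cells with doxycycline, 5.93 and 40.5 CPM with retinoic acid, and 5.49 and 41.5 CPM untreated. Pou5f1, which encodes Oct4, was 13.7 CPM in KO and 40.2 CPM in WT cells with doxycycline, against 1194 CPM in untreated KO and 1022 CPM in untreated WT cells. The summed level of 8 trophectoderm markers was 1566 to 1674 CPM in KO and 2507 to 2857 CPM in WT cells with doxycycline, against 83.4 to 89.3 CPM in untreated KO and 124 to 128 CPM in untreated WT cells. The 8 pluripotency markers summed to 289 to 304 CPM in KO and 407 to 438 CPM in WT cells with doxycycline, against 6691 to 6718 CPM and 6029 to 6032 CPM in untreated KO and WT cells. With retinoic acid, 8 endoderm markers summed to 803 to 845 CPM in KO and 381 to 413 CPM in WT cells, against no more than 9.84 CPM in any untreated library. These are bulk samples, in which fewer cells of a type and less RNA per cell cannot be told apart, and the part of this change of cell state in the results below was not tested. The 8 fibroblast markers, listed as a sign of feeder cells, summed to 24.7 to 52.6 CPM across all 12 libraries, highest in KO cells with doxycycline. Of 7 tested there against untreated KO cells, 4 were higher and 1 lower. Acta2 (19.1 and 17.8 CPM, untreated 0.26 and 0.06) and Col1a1 (21.6 and 18.5 CPM, untreated 4.93 and 4.19) rose. Thy1 fell to 8.56 and 7.05 CPM from 30.2 and 29.4 CPM. The sum therefore does not measure the amount of feeder cells.

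Both glucose transporters rose with doxycycline in both lines, while Hk2, Pfkp, Aldoa, Pgk1, Ldha and Pdk1 fell in both lines. In KO cells 2 of the 11 genes were called higher and 8 lower, where 31.2% of all genes tested were called in each direction (62.3% in either). In WT cells 3 were called higher and 6 lower, where 31.8% of all genes were called higher and 31.3% lower (63% in either). The median log2 change over the 11 genes was -0.58 in KO and -0.77 in WT cells, while the median over all genes was 0.00 in both (-0.05 and -0.11 with upper-quartile factors). The KO median was the value of the second Aldoa entry (-0.58 ± 0.53, no call). That entry had only 0.51 CPM with doxycycline and 0.78 CPM untreated, so this median is uncertain. The libraries of the 2 conditions did not overlap for 10 of the 11 genes in KO and 9 in WT cells, against 78.7% and 79.1% of all genes tested. Calls are at a Benjamini-Hochberg adjusted p under 0.05 in edgeR's quasi-likelihood test over all genes, and errors of log2 changes are standard errors.

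Slc2a3 (GLUT3, ENSMUSG00000003153.10, chr6:122727809-122801640), a high-affinity transporter known from neurons and the early embryo, had 2910.0 and 2964 CPM in KO and 4862 and 4798 CPM in WT cells with doxycycline, against 1626 and 1654 CPM in untreated KO and 1704 and 1699.9 CPM in untreated WT cells. The groups did not overlap, and the doxycycline libraries of WT cells stood far above those of KO cells. Slc2a3 was 1.79-fold higher with doxycycline in KO cells (log2 change 0.84 ± 0.05, adjusted p = 1.1e-14) and 2.84-fold higher in WT cells (1.505 ± 0.05, adjusted p = 2e-20). Slc2a1 (GLUT1, ENSMUSG00000028645.11, chr4:119108711-119137983), the widely expressed basal transporter, had 660.3 and 636 CPM in KO and 959 and 1062 CPM in WT cells with doxycycline. Untreated cells had 424 and 433 CPM in KO and 379 and 378 CPM in WT. It was thus 1.51-fold higher in KO (0.60 ± 0.07) and 2.67-fold higher in WT cells (1.42 ± 0.07). The rise was smaller in KO cells for both transporters, with a KO minus WT difference in response of -0.82 ± 0.10 for Slc2a1 (adjusted p = 7.1e-06) and -0.66 ± 0.07 for Slc2a3 (adjusted p = 5.4e-08). In this test of the difference between responses, 1 of the 11 genes was called higher in KO and 5 lower, where 9.11% of all genes were called higher and 10% lower (19.2% in either direction); with upper-quartile factors 61.9% of all such calls were higher, against 47.6% with TMM.

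**Figure D1:**
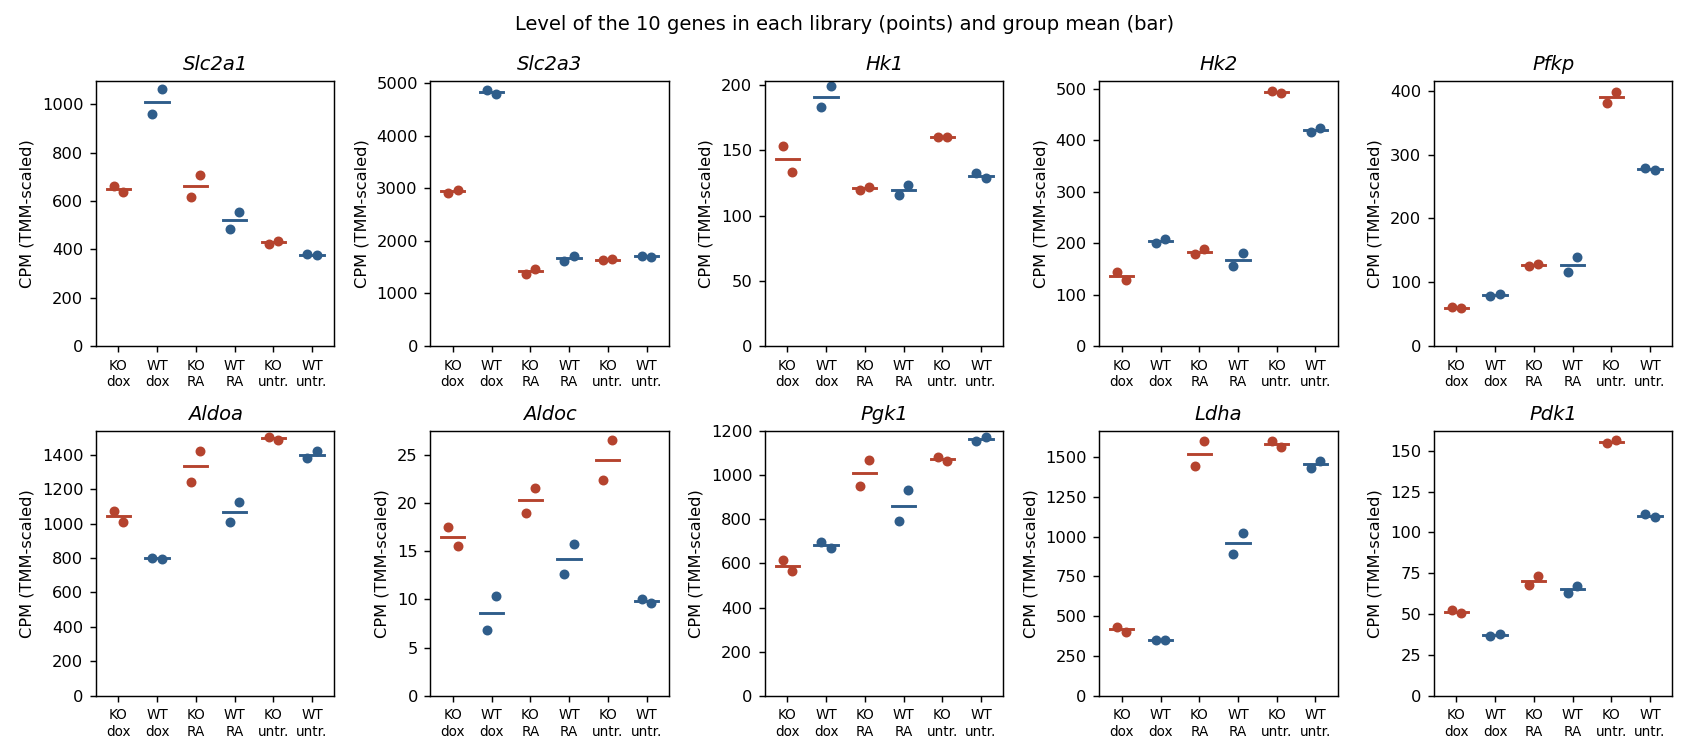
Level of each of the 10 genes in CPM (TMM-scaled, linear axes from 0) in the 12 libraries; points are libraries, bars are means of 2, red is KO and blue is WT, and dox, RA and untr. stand for doxycycline, retinoic acid and untreated. Slc2a1 and Slc2a3 (959 to 1062 and 4798 to 4862 CPM) and Hk1 are highest in WT cells with doxycycline. Hk2, Pfkp, Aldoa, Aldoc, Ldha and Pdk1 have their highest mean in untreated KO cells. For Ldha those libraries overlap KO cells with retinoic acid.

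The 2 hexokinases, which phosphorylate glucose on entry, behaved differently from each other. Hk2 (ENSMUSG00000000628.10, chr6:82725025-82774454), the inducible isoform, had 143 and 128 CPM in KO and 201 and 207 CPM in WT cells with doxycycline, against 496 and 490.5 CPM in untreated KO and 417 and 423 CPM in untreated WT cells. It fell by 1.86 ± 0.06 log2 units in KO and by 1.04 ± 0.06 in WT cells, and the fall was larger in KO cells by 0.82 ± 0.08 (adjusted p = 1.1e-07). Hk1 (ENSMUSG00000037012.18, chr10:62268855-62379908), the constitutive isoform, had 153 and 133 CPM in KO and 183 and 199 CPM in WT cells with doxycycline, against 161 and 159.9 CPM in untreated KO and 133 and 128 CPM in untreated WT cells. Hk1 rose in WT cells (0.55 ± 0.06, adjusted p = 3.7e-09). In KO cells its change of -0.16 ± 0.06 was called at an adjusted p of 0.02. That call was lost without either untreated KO library (adjusted p = 0.079 and 0.064) and without doxycycline KO replicate 2, where the change was -0.06 (adjusted p = 0.41). The difference in the Hk1 response, -0.71 ± 0.08, was called (adjusted p = 3.2e-07).

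Pfkp (ENSMUSG00000021196.14, chr13:6579768-6648777), the platelet-type phosphofructokinase that commits sugar to glycolysis, showed the largest decrease of the 10 genes with doxycycline in KO cells. It had 61.3 and 59.0 CPM in KO and 77.9 and 81.9 CPM in WT cells with doxycycline, against 381 and 398 CPM in untreated KO and 279 and 276 CPM in untreated WT cells. These are log2 changes of -2.69 ± 0.07 and -1.79 ± 0.06, and their difference of -0.90 ± 0.09 was called (adjusted p = 9.3e-08). Ldha (ENSMUSG00000063229.15, chr7:46841475-46855627), the lactate dehydrogenase subunit that favours lactate production, had 433 and 400.4 CPM in KO and 349 and 351 CPM in WT cells with doxycycline. Untreated cells had 1603 and 1561 CPM in KO and 1431 and 1477 CPM in WT. Ldha fell by 1.92 ± 0.06 in KO and by 2.05 ± 0.06 in WT cells, the largest decrease of the 10 genes in WT. Pdk1 (ENSMUSG00000006494.11, chr2:71873224-71903858) had 52.5 and 50.4 CPM in KO and 36.7 and 37.7 CPM in WT cells with doxycycline, against 155 and 156 CPM in untreated KO and 111 and 109.6 CPM in untreated WT cells. It fell by 1.59 ± 0.06 and 1.57 ± 0.06. The difference between the 2 lines' responses was 0.13 ± 0.09 for Ldha and -0.03 ± 0.08 for Pdk1, with no call for either.

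Aldoa (ENSMUSG00000030695.16, chr7:126795234-126800751), the ubiquitous aldolase, fell by 0.52 ± 0.06 in KO and by 0.81 ± 0.06 in WT cells, with 1075 and 1010.5 CPM in KO and 803 and 792 CPM in WT cells with doxycycline, against 1504 and 1487 CPM in untreated KO and 1379 and 1422 CPM in untreated WT cells. The smaller fall in KO cells, a difference of 0.29 ± 0.08, was called (adjusted p = 0.014). Without 1 library that adjusted p was 0.076 (untreated WT replicate 2), 0.061 (untreated KO replicate 2), 0.051 (doxycycline WT replicate 2) or 0.064 (doxycycline KO replicate 1). Pgk1 (ENSMUSG00000062070.12, chrX:106187100-106203699), which makes ATP from 1,3-bisphosphoglycerate, fell by 0.86 ± 0.07 in KO and by 0.77 ± 0.07 in WT cells. It had 614 and 567 CPM in KO and 696 and 668 CPM in WT cells with doxycycline, against 1084 and 1064 CPM in untreated KO and 1155 and 1172 CPM in untreated WT cells. Some Pgk1 reads were shared with near-identical sequences: its estimated counts were not whole in any of the 12 libraries, and the copy Pgk1-rs7 took up to 194 counts. Aldoc (ENSMUSG00000017390.15, chr11:78322968-78327781), the brain-type aldolase, lay between 6.81 and 26.5 CPM in all libraries. It fell by 0.57 ± 0.14 in KO cells, with 17.5 and 15.5 CPM with doxycycline against 22.4 and 26.5 CPM untreated. In WT cells it had 6.81 and 10.4 CPM with doxycycline against 10.0 and 9.65 CPM untreated, which overlapped (-0.16 ± 0.18, adjusted p = 0.45). Without doxycycline WT replicate 2 the WT change was -0.53 (adjusted p = 0.021), and without replicate 1 it was 0.08.

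**Figure D2:**
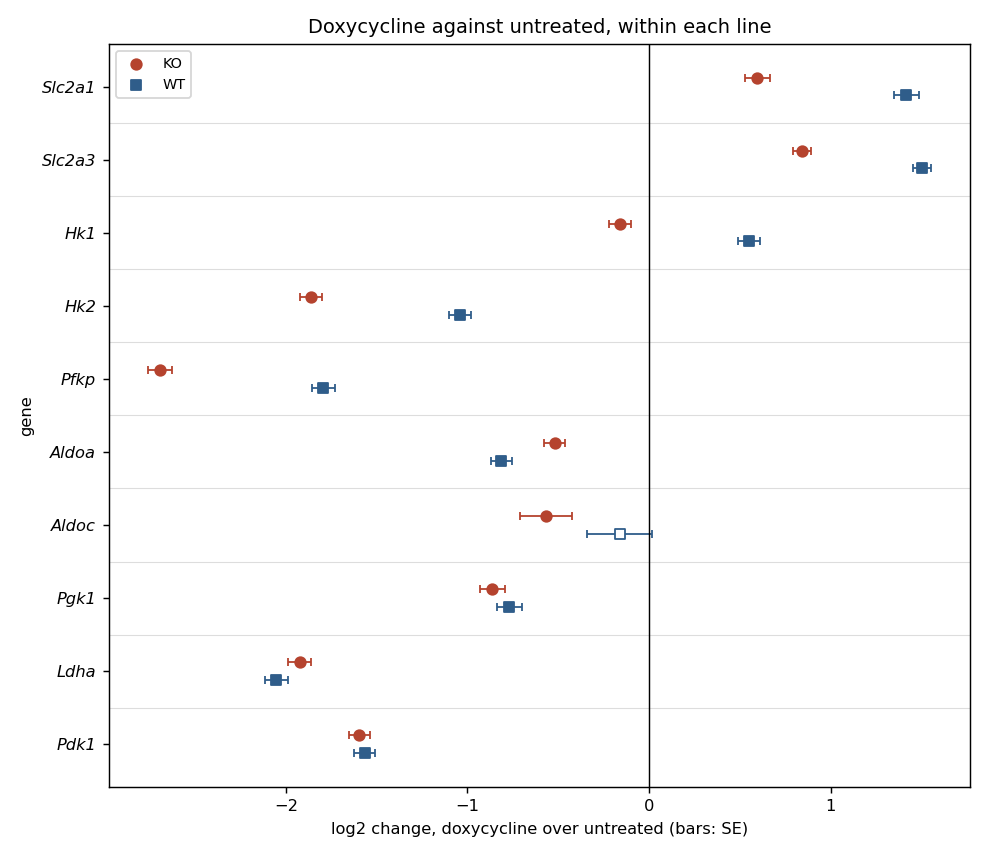
Log2 change with doxycycline over untreated in KO (red circles) and WT (blue squares) cells, with standard errors; open symbols missed the threshold. Slc2a1 and Slc2a3 lie right of 0 in both lines, Hk1 only in WT, Pfkp reaches -2.69 in KO and Ldha -2.05 in WT.

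Levels per transcript length (deposited TPM) showed how the balance between paired genes moved, as a description with no test. Hk2 made up 52.1% and 50.9% of Hk1 plus Hk2 TPM in KO and 56.0% and 53.5% in WT cells with doxycycline, against 78.1% and 77.9% in untreated KO and 78.2% and 80.2% in untreated WT cells. The hexokinases were therefore close to equal with doxycycline and about 3.56 and 3.52 to 1 (KO) or 3.59 and 4.04 to 1 (WT) in favour of Hk2 when untreated. Slc2a3 made up 77.9% and 78.7% of transporter TPM in KO and 80.1% and 78.4% in WT cells with doxycycline, against 75.1% in both untreated KO libraries and 78.3% and 78.0% in untreated WT cells. With retinoic acid the Slc2a3 share was 64.0% and 62.8% in KO and 72.9% and 71.3% in WT cells. Aldoc was 0.590% to 1.53% of aldolase TPM in every library. The lactate dehydrogenase pair, added after its values were seen, turned over. Ldhb, the subunit that favours use of lactate, made up 88.6% and 87.6% of Ldha plus Ldhb TPM in KO and 87.6% and 88.1% in WT cells with doxycycline, against 26.0% and 24.8% in untreated KO and 33.2% and 32.9% in untreated WT cells. With retinoic acid the Ldhb share was 9.53% and 8.77% in KO and 17.8% and 16.7% in WT cells. Ldhb counts rose with doxycycline by 2.56 ± 0.07 in KO (2653 and 2232 CPM, against 424 and 403 CPM untreated) and by 1.91 ± 0.07 in WT cells (1940.0 and 2049 CPM, against 521 and 543 CPM untreated).

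**Figure D3:**
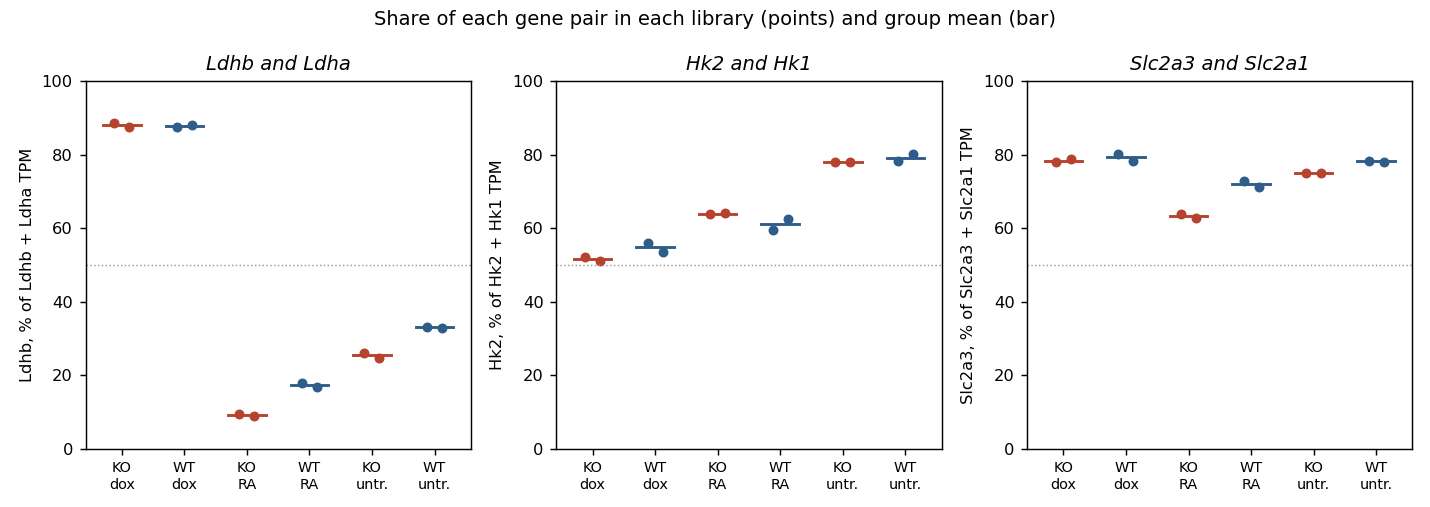
Share of TPM in 3 gene pairs per library (points; bars are means of 2; dotted line at 50%), with KO in red and WT in blue. Ldhb holds 87.6% to 88.6% of the lactate dehydrogenase pair with doxycycline and at most 33.2% elsewhere, and the Hk2 share is closest to 50% with doxycycline.

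Other genes of the pathway were read from wider lists. Of 28 other glycolysis genes tested, 7 were higher and 14 lower with doxycycline in KO cells, and 9 were higher and 13 lower in WT cells, with list medians of -0.34 and -0.08. Of all genes tested, 31.2% were called in each direction in KO, and 31.8% higher and 31.3% lower in WT cells, and the counts of the lists below are read against these shares. Eno1, which encodes enolase, fell by 0.89 ± 0.05 in KO and by 1.55 ± 0.06 in WT cells; Eno1b, a near-identical copy, may share its reads. Pkm, which encodes a pyruvate kinase, fell by 0.91 ± 0.06 in KO and by 1.11 ± 0.06 in WT cells. Pfkl fell by 1.08 ± 0.07 and 0.97 ± 0.07, so a second phosphofructokinase gene was lower too. Pfkfb3, whose product makes an activator of phosphofructokinase, rose by 1.61 ± 0.10 in KO and by 0.68 ± 0.10 in WT cells. Among 17 other sugar and lactate transport genes, 5 were higher and 8 lower in KO and 6 higher and 6 lower in WT cells. The facilitative transporter Slc2a12 rose by 3.25 ± 0.26 and 3.21 ± 0.21, at low levels of 5.12 ± 0.36 CPM in KO and 9.59 ± 0.28 CPM in WT cells with doxycycline (SD, n = 2 each). The lactate exporter Slc16a3 (MCT4) fell by 1.52 ± 0.16 in KO and by 2.12 ± 0.20 in WT cells. Txnip, which encodes a brake on glucose uptake, fell by 1.55 ± 0.06 and 1.177 ± 0.06.

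Of 14 genes for pyruvate dehydrogenase and its carriers, 2 were higher and 10 lower with doxycycline in KO and 2 higher and 7 lower in WT cells. The pyruvate carrier subunit Mpc2 rose by 0.44 ± 0.12 in KO and by 0.34 ± 0.11 in WT cells, and Pdk4, which acts on the same complex as Pdk1, fell by 2.21 ± 0.22 and 1.62 ± 0.22 at no more than 6.82 ± 0.76 CPM (untreated KO, SD, n = 2). Of 13 pentose phosphate and gluconeogenesis genes, 3 were higher and 8 lower in KO and 4 higher and 5 lower in WT cells. Of 27 targets of the hypoxia-inducible factors outside glycolysis, 10 were higher and 12 lower in KO, and 11 higher and 7 lower in WT cells. Of 15 regulators, 5 were higher and 6 lower in each line. The shares of all genes called were again 31.2% in each direction in KO, and 31.8% higher and 31.3% lower in WT cells. Epas1, which encodes HIF-2α, fell by 1.77 ± 0.09 in KO and by 0.99 ± 0.09 in WT cells. Myc fell by 0.38 ± 0.07 in KO and rose by 0.73 ± 0.07 in WT cells, with 58.0 ± 1.5 CPM in KO and 98.8 ± 7.3 CPM in WT cells with doxycycline (SD, n = 2 each).

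Within doxycycline, KO and WT cells differed in 10 of the 11 genes, 4 higher and 6 lower in KO, where 37% of all genes tested were called, 17.9% higher and 19.1% lower. Genes lower in KO included Slc2a3 by 0.72 ± 0.05 log2 units, Slc2a1 by 0.64 ± 0.07, Hk2 by 0.59 ± 0.06, Hk1 by 0.42 ± 0.06 and Pfkp by 0.41 ± 0.07. Those higher in KO were Aldoa by 0.39 ± 0.06, Aldoc by 0.91 ± 0.16, Ldha by 0.25 ± 0.06 and Pdk1 by 0.47 ± 0.06. Adjusted p-values of these 9 genes ran up to 0.0026, the value of Ldha, and without doxycycline KO replicate 1 Ldha had 0.19 (adjusted p = 0.066). Pgk1 was called lower at -0.21 ± 0.07 (adjusted p = 0.025), a call that was lost without any one of the 4 doxycycline libraries, with adjusted p from 0.053 to 0.28. The libraries did not overlap for 10 of the 11 genes, against 63.6% of all genes. The median over the 11 genes was -0.41, against 0.00 over all genes. It was the value of the second Aldoa entry (-0.41 ± 0.53, no call), with 0.51 CPM in KO and 0.68 CPM in WT cells, so this median is uncertain. Of all genes called, 48.3% were higher in KO, against 60.6% with upper-quartile factors and 59.8% with total counts. Among the other glycolysis genes 11 of 28 were higher and 5 lower in KO: Eno2 had 32.5 ± 1.5 CPM in KO and 10.8 ± 0.7 CPM in WT cells (log2 difference 1.58 ± 0.09), and Eno1 had 1449.6 ± 93 CPM and 882 ± 47 CPM (0.72 ± 0.05; SD, n = 2 each). Galk1, which phosphorylates galactose, was lower in KO by 0.74 ± 0.06. Slc16a3 had 30.5 ± 3.9 CPM in KO and 12.2 ± 1.3 CPM in WT cells (1.33 ± 0.21). Of the hypoxia-inducible factor targets outside glycolysis, 12 of 27 were higher and 4 lower; Ndrg1 was lower in KO by 1.85 ± 0.09 and Vegfa by 1.36 ± 0.07, whereas Ddit4 was higher by 1.02 ± 0.15. Trophectoderm markers were also lower in KO here (7 of 7 tested). Of 8 pluripotency markers 6 were lower and 2, Sox2 and Esrrb, were higher. Pou5f1 itself was called lower in KO by 1.57 ± 0.13, so Oct4 RNA was not equally depleted in the 2 lines. The 8 neural markers summed to 268 to 279 CPM in KO and 130 to 136 CPM in WT cells, with 2 of 7 tested called higher and 1 lower. The part of these differences of cell state in the results was not tested.

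In untreated cells, Aldoc, Pfkp, Pdk1, Hk1 and Hk2 were called higher in KO than in WT. In edgeR 5 of the 11 genes were called higher in KO and 0 lower, where 15.2% of all genes were called higher and 14.9% lower (30% in either direction). The DESeq2 test also called 5 of them higher and 0 lower, where it called 1488 of all genes higher and 1941 lower. At an unadjusted p under 0.05 in edgeR, 6 genes were higher and 0 lower, where 6994 of all 17884 genes tested passed in either direction. Aldoc had 22.4 and 26.5 CPM in KO against 10.0 and 9.65 CPM in WT cells, a 2.49-fold difference (1.32 ± 0.16, adjusted p = 4.6e-06). Pfkp was higher by 0.49 ± 0.06 and Pdk1 by 0.49 ± 0.05, which are 1.40-fold and 1.41-fold. Hk1 was higher by 0.29 ± 0.06 and Hk2 by 0.23 ± 0.06 (adjusted p = 0.0032). The Hk2 call was lost without untreated WT replicate 1 (adjusted p = 0.054), with effective-length offsets (0.21) and on log2(TPM + 1) (0.12). Slc2a1 was 0.18 ± 0.07 (adjusted p = 0.06), Ldha 0.12 ± 0.06, Aldoa 0.09 ± 0.06, Slc2a3 -0.05 ± 0.05 and Pgk1 -0.11 ± 0.07, with no call for these. The median over the 11 genes was 0.23, against 0.02 over all genes, and the libraries did not overlap for 11 of 11, against 63.5% of all genes. With only the 4 untreated libraries fitted, 8 were called, 7 higher and 1 lower. Over all settings run, 3328 to 6000 of all genes were called in untreated KO against WT. The lists around the members were 7 higher and 2 lower of 28 for other glycolysis genes, and 13 higher and 2 lower of 27 for hypoxia-inducible factor targets, and 6 of 17 transport genes were higher. Markers of cell state moved in the same comparison: 6 of 7 trophectoderm markers were lower in KO (list median -0.53), and of 8 pluripotency markers 3, Klf4 and Tdgf1 among them, were higher and Nanog was lower; their part in these differences was not tested. Slc16a3 was higher in KO by 0.73 ± 0.15, and the hypoxia-inducible factor targets Bnip3 by 1.10 ± 0.19 and Ndrg1 by 0.93 ± 0.10. The 2 lower targets of that list were Stc2 and Vegfa. Vegfa had 30.1 and 29.4 CPM in KO against 34.5 CPM in both WT libraries. Of the other glycolysis genes, Ldhb (-0.36 ± 0.07) and Eno3, the muscle enolase (-1.249 ± 0.11), were lower.

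With retinoic acid, Ldha, Aldoa, Slc2a1, Pgk1 and Aldoc were higher in KO than in WT cells and Slc2a3 was lower. Of the 11 genes 5 were called higher in KO and 1 lower, where 18.8% of all genes were called higher and 20% lower (38.8% in either direction). Ldha had 1442 and 1603 CPM in KO against 890.3 and 1025 CPM in WT cells, which did not overlap (0.67 ± 0.06, adjusted p = 6.2e-09). Aldoa had 1243 and 1422 CPM in KO against 1007 and 1124 CPM in WT cells (0.32 ± 0.06). Slc2a1 had 618 and 708 CPM against 486 and 555 CPM (0.35 ± 0.07), and Pgk1 had 950.5 and 1070.4 CPM against 791 and 932 CPM (0.23 ± 0.07). Aldoc had 18.9 and 21.6 CPM in KO against 12.6 and 15.7 CPM in WT cells (0.52 ± 0.14). The exception was Slc2a3, with 1373 and 1471 CPM in KO against 1617 and 1719 CPM in WT cells (-0.23 ± 0.05). Hk1, Hk2, Pfkp and Pdk1 lay between -0.01 and 0.13 with no call. The call of Pgk1 was lost without retinoic acid WT replicate 1 (0.12, adjusted p = 0.23) or KO replicate 2 (0.14, adjusted p = 0.19), and that of Aldoc without the same libraries (0.37, adjusted p = 0.11, and 0.42, adjusted p = 0.09). In both lines the library numbered 2 was above the other for all 10 genes, and with only these 4 libraries fitted 3 of the 11 were called, with Slc2a1 at an adjusted p of 0.14 and Aldoa at 0.07. Over all settings run, 4267 to 8019 of all genes were called in retinoic acid KO against WT. The median over the 11 genes was 0.23, against -0.01 over all genes, and libraries did not overlap for 7 of 11, against 71.3% of all genes. Of other glycolysis genes 11 of 28 were higher and 3 lower in KO, among them the hexokinase-like Hkdc1 (1.16 ± 0.12). Of 27 hypoxia-inducible factor targets, 16 were higher and 1, Kdm3a, was lower (-0.38 ± 0.05); Plod2 was higher by 1.202 ± 0.06. Endoderm markers (8 of 8) were higher and pluripotency markers (7 of 8, list median -1.50) lower in KO here, and their part in these differences was not tested.

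**Figure D4:**
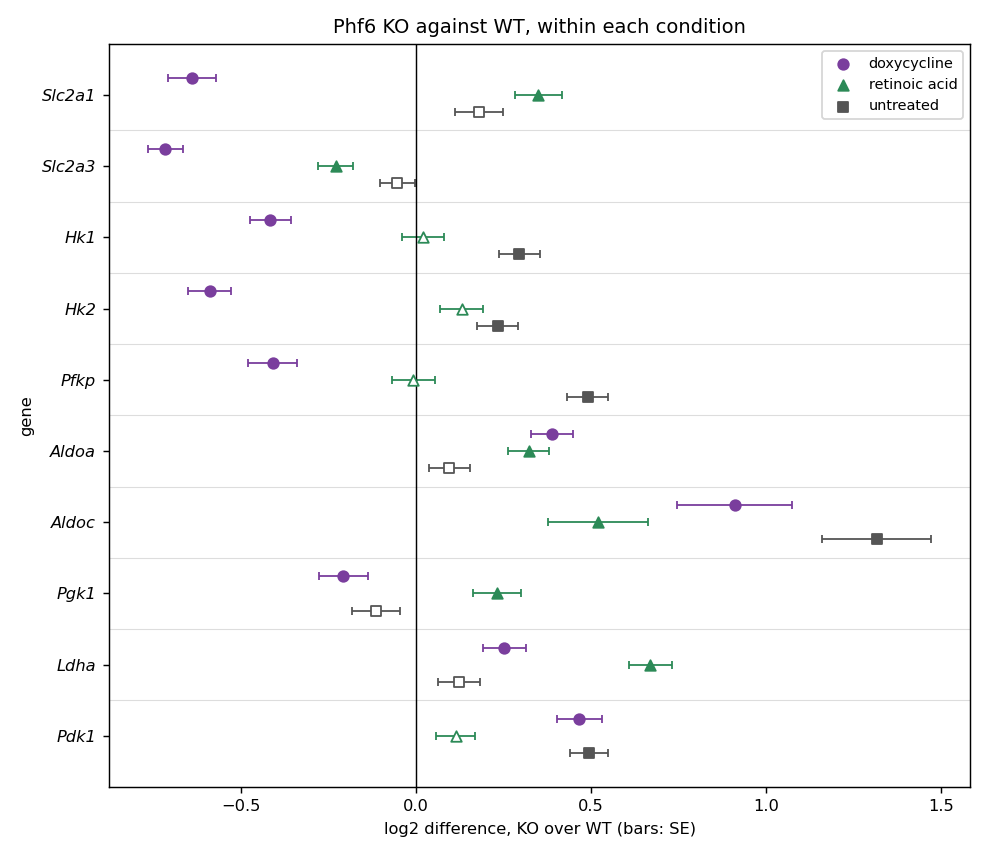
Log2 difference of KO over WT for the 10 genes with doxycycline (purple circles), retinoic acid (green triangles) and untreated (grey squares), with standard errors; open symbols missed the threshold. Slc2a1, Hk1, Hk2 and Pfkp lie left of 0 with doxycycline and right of 0 untreated, and Aldoc lies right of 0 in all 3 conditions.

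Retinoic acid against untreated is harder to read in absolute terms. The RNA of the retinoic acid libraries was extracted by a different stated protocol, so treatment and extraction cannot be told apart, and their TMM factors stood above those of all other libraries. With TMM the median log2 change over all genes was 0.10 in KO and 0.12 in WT cells, while with total counts alone it was 0.43 and 0.47, and on log2(TPM + 1) it was 0.42 and 0.43. The share of calls that were higher was 54.2% in KO and 55.5% in WT with TMM, 69.4% and 73.1% with total counts, and 76.9% and 80.2% on log2(TPM + 1). Hk2, Pfkp, Pdk1 and Slc2a1 kept their direction in both lines under each of these scalings. Hk2 fell by 1.43 ± 0.06 in KO and by 1.32 ± 0.06 in WT cells with TMM, which is -1.53 and -1.44 relative to the median of all genes. It had 179 and 188 CPM in KO and 155 and 180.3 CPM in WT cells with retinoic acid. Pfkp fell by 1.62 ± 0.06 and 1.12 ± 0.06 (-1.72 and -1.24 relative to the median), with 125 and 129 CPM in KO and 116 and 139 CPM in WT cells. Pdk1 fell by 1.14 ± 0.05 and 0.76 ± 0.06 (-1.248 and -0.88 relative to the median), with 67.7 and 73.1 CPM in KO and 63.0 and 67.1 CPM in WT cells. Slc2a1 rose by 0.63 ± 0.07 and 0.46 ± 0.07 (0.53 and 0.34 relative to the median). Their untreated values are given above, and no retinoic acid library overlapped an untreated library of the same line for these genes.

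The sign of the other genes' changes depended on the scaling in 1 or both lines, as a scaling that moves the median of all genes moves each gene with it. Relative to that median, the signs with total counts were those with TMM. Hk1 and Aldoa lay below the median of all genes in both lines under the 3 scalings: Hk1 at -0.51 in KO and -0.25 in WT with TMM and -0.32 and -0.03 on log2(TPM + 1), Aldoa at -0.27 and -0.51 with TMM and -0.06 and -0.30 on log2(TPM + 1). Slc2a3 (-0.31 in KO and -0.15 in WT with TMM, -0.09 and 0.08 on log2(TPM + 1)) changed side in WT. Pgk1 (-0.19 and -0.55, then 0.02 and -0.34) and Ldha (-0.16 and -0.72, then 0.06 and -0.50) changed side in KO. Aldoc stayed below the median in KO (-0.38, then -0.31) and above it in WT (0.40, then 0.46). On the scale of each fit itself, Slc2a3 with TMM was -0.21 ± 0.05 in KO and -0.03 ± 0.05 in WT cells, but 0.12 and 0.32 with total counts and 0.33 and 0.51 on log2(TPM + 1). Hk1 was -0.40 ± 0.06 and -0.13 ± 0.06 with TMM (adjusted p = 0.052 in WT), but 0.10 and 0.39 on log2(TPM + 1). Aldoa was -0.17 ± 0.06 and -0.39 ± 0.06 with TMM, but 0.36 and 0.13 on log2(TPM + 1); its KO call was lost without retinoic acid KO replicate 1 (-0.08, adjusted p = 0.31). Pgk1 was -0.09 ± 0.07 and -0.43 ± 0.07 with TMM, but 0.44 and 0.09 on log2(TPM + 1). Ldha was -0.06 ± 0.06 in KO and -0.60 ± 0.06 in WT cells with TMM, and 0.47 and -0.08 on log2(TPM + 1). Aldoc was -0.28 ± 0.14 in KO (no call) and 0.52 ± 0.16 in WT cells with TMM, and 0.10 and 0.88 on log2(TPM + 1). Its WT call was lost without untreated WT replicate 1 (adjusted p = 0.06) or 2 (0.079) or without retinoic acid WT replicate 2 (0.1). Under TMM 1 of the 11 genes was called higher and 6 lower in KO cells, where 40.9% of all genes were called higher and 34.6% lower (75.5% in either direction). In WT cells 2 were higher and 6 lower, where 41% and 32.9% were (73.9% in either direction). The medians over the 11 genes were -0.21 in KO and -0.39 in WT cells, and libraries did not overlap for 9 and 10 of 11 genes, against 88% and 87% of all genes.

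**Figure D5:**
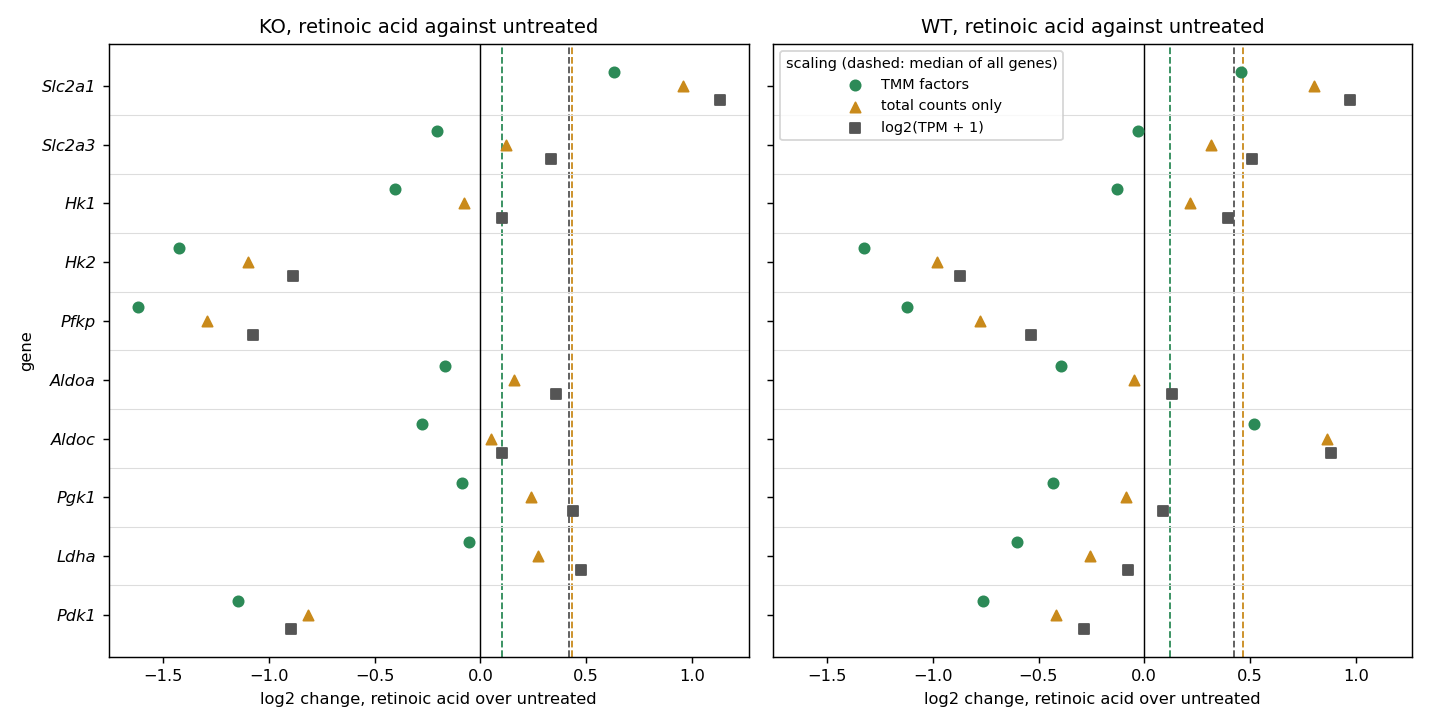
Log2 change with retinoic acid over untreated in KO (left) and WT (right) cells under 3 scalings; dashed lines are the median over all genes in the same scaling. Hk2, Pfkp and Pdk1 lie left of 0 and Slc2a1 right of 0 under each scaling, and Hk1 and Aldoa lie left of the dashed line of the same scaling in both lines.

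The difference between the responses of KO and WT cells to retinoic acid compares groups with the same extraction text in each condition. Of the 11 genes 2 were called higher in KO and 4 lower, where 7.31% of all genes were called higher and 10.3% lower (17.7% in either direction). Ldha responded more upwards in KO cells by 0.55 ± 0.09 (adjusted p = 6.3e-05) and Pgk1 by 0.34 ± 0.10 (adjusted p = 0.019). Pfkp responded more downwards by 0.50 ± 0.09 (-0.50, adjusted p = 0.00015), Pdk1 by 0.38 ± 0.08 (-0.38, adjusted p = 0.00067), Aldoc by 0.80 ± 0.21 (-0.80, adjusted p = 0.015) and Hk1 by 0.28 ± 0.08 (-0.28, adjusted p = 0.021). Pfkp, Pdk1 and Hk1 had no call between KO and WT cells with retinoic acid, but were called higher in KO when untreated. Aldoc was called higher in KO in both conditions. The calls of Pgk1, Aldoc and Hk1 were lost without 1 of several libraries. For Pgk1 adjusted p then reached 0.099 (without retinoic acid KO replicate 2), for Aldoc 0.085 (without untreated WT replicate 2) and for Hk1 0.12 (without retinoic acid WT replicate 2). On log2(TPM + 1) 3 of the 11 genes were called; Ldha was 0.55 there and 0.53 with total counts.

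Around the members, Ldhb was lower with retinoic acid than untreated by 1.76 ± 0.07 in both lines (122 and 123 CPM in KO and 151 and 164 CPM in WT cells). For this and the changes below, retinoic acid, LIF withdrawal and RNA extraction cannot be told apart. The values use TMM, and with total counts the median over all genes was 0.43 in KO and 0.47 in WT cells. Txnip rose by 2.91 ± 0.06 in KO and by 2.81 ± 0.06 in WT cells, to 2572 ± 32 CPM and 1611 ± 191 CPM, against 342 ± 9.1 CPM and 229.8 ± 0.99 CPM untreated (SD, n = 2 each). Slc2a12 rose by 3.25 ± 0.26 and 2.75 ± 0.21, and Pdk2, a further pyruvate dehydrogenase kinase, rose by 1.79 ± 0.10 and 1.63 ± 0.11, whereas Pdk1 fell. Myc fell by 3.88 ± 0.09 in KO and by 2.37 ± 0.08 in WT cells, with 5.10 ± 0.33 CPM and 11.4 ± 1.6 CPM left (SD, n = 2 each). Of 27 hypoxia-inducible factor targets outside glycolysis, 20 were higher and 3 lower in KO and 22 higher and 3 lower in WT cells, with medians of 0.99 and 1.08 against 0.10 and 0.12 over all genes. P4ha2 rose by 3.46 ± 0.09 and 3.28 ± 0.09 and P4ha1 by 3.23 ± 0.08 and 2.72 ± 0.08; both encode collagen prolyl hydroxylase subunits. Of the 28 other glycolysis genes 8 were higher and 10 lower in KO and 9 higher and 12 lower in WT cells, where 40.9% of all genes were called higher and 34.6% lower in KO and 41% and 32.9% in WT cells.

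Across the 12 libraries, each member had a near match among 11434 genes of at least 5 mean CPM, by Pearson's r of log2 CPM. The points share libraries and 6 group means, so r is a description. Pfkp was nearest to Tcf15 and Ldha to Aplp1 (r = 0.996 each), Pdk1 to Fam81a (0.991), Slc2a3 to Rbpms (0.987), Aldoa to Abcc1 (0.982), Hk2 to Zbed5 (0.982) and Slc2a1 to Dazap2 (0.980). Pgk1 was nearest to Cenpa (0.969), Aldoc to Tbc1d16 (0.947) and Hk1 to Ankrd54 (0.945). In the order of group means, Slc2a1 ran from WT with doxycycline (1011 CPM) through KO with retinoic acid (663 CPM) and KO with doxycycline (648 CPM), whose libraries overlapped, to untreated WT (378 CPM). For Slc2a3 the untreated WT, retinoic acid WT and untreated KO groups (1702, 1668 and 1640 CPM) overlapped between neighbours in that order. Pfkp and Hk2 shared the top of their order, untreated KO then untreated WT, and the bottom, KO with doxycycline. Ldha was lowest in WT with doxycycline, and its untreated KO, retinoic acid KO and untreated WT groups overlapped in turn.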

How the data were processed

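Per the submitters' processing notes, the authors used STAR 2.5.3a, RSEM 1.3.0 and DESeq2 1.18.1 with mm10; which annotation release was used, and whether counting used strand, is not given in the sources used here. The deposited gene tables, per the file headers, hold an expected count, TPM and effective length for each gene and library. Expected counts were rounded to whole numbers and tested in edgeR 4.0.16 (R 4.3.3): filterByExpr with a minimum count of 10, TMM factors, a robust quasi-likelihood fit over all 12 libraries with group as the only term (6 residual degrees of freedom before moderation), and Benjamini-Hochberg adjustment over all 17884 genes tested, with a threshold of 0.05. Standard errors of log2 changes were taken from the F statistic. The smallest two-sided exact permutation p for 2 libraries against 2 is 0.333, so no such test was used. Deposited TPM served for ratios between genes and for limma 3.58.1 on log2(TPM + 1). The test was checked on simulated counts with 200 changed genes.

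Alternatives were DESeq2 1.42.0 (its factors in edgeR, and its own test), upper-quartile factors, no filter on low counts, offsets from the deposited effective lengths (an other column of the RSEM tables), the replicate number as a block, fewer groups in the fit, no genes of chromosome 1, and each library left out; total counts alone and the Ldhb to Ldha ratio were added after seeing the data. Totals of 15799517 to 21441996 counts set the counting precision, and a typical coefficient of variation between replicates was 4.38%. Counting limits cover counting error only.

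Members and lists were chosen with earlier results of these data known. Named genes were the members, Phf6 and Pou5f1, at most 2 called genes in each direction per list and comparison with at least 5 CPM and no overlap between libraries, the nearest pattern of each member, and copies of members. Values of a gene named for 1 comparison are given in the matching comparison of the other line too. Gene positions are those of GENCODE M21 (GRCm38) for the IDs in the tables. Promoter windows came from RefSeq (GRCm38.p6).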

Additional observations from a re-analysis of the deposited data

Results flagged for a closer look

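The response to a treatment differed between KO and WT cells, by the interaction term of the edgeR fit, for the following genes; each value is the KO minus WT difference between log2 responses. With doxycycline it was -0.82 for Slc2a1 and -0.66 for Slc2a3, the transporters that rose less in KO cells. It was -0.71 for Hk1, which rose in WT cells and was lower with doxycycline in KO cells, -0.82 for Hk2 and -0.90 for Pfkp, which fell further in KO cells, and 0.29 for Aldoa, which fell less. With retinoic acid it was 0.55 for Ldha and 0.34 for Pgk1, and -0.50 for Pfkp, -0.38 for Pdk1, -0.80 for Aldoc and -0.28 for Hk1.

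The KO and WT lines started from different untreated levels for several of these genes (Pfkp 389.6 CPM in KO and 277 CPM in WT, Aldoc 24.5 and 9.82 CPM, Pdk1 155 and 110.4 CPM). Each difference between responses is the KO over WT difference under treatment less the one in untreated cells. With retinoic acid the KO over WT difference was -0.01 for Pfkp, 0.11 for Pdk1, 0.02 for Hk1 and 0.52 for Aldoc. In untreated cells it was 0.49, 0.49, 0.29 and 1.32. For these genes the untreated difference was the larger. For Ldha (0.67 with retinoic acid, 0.12 untreated) and Pgk1 (0.23 and -0.11) it was the smaller.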

How the results depend on the processing

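Of 2233 recomputed values of single members, 2075 kept direction and call, 66 lost a call, 53 gained one and 39 changed direction, 7 of them from a called value. Those 7 were all in retinoic acid against untreated, on log2(TPM + 1) or with total counts only (Slc2a3, Aldoa and Hk1 in KO, Aldoa and Pgk1 in WT). The cause of these changes was not tested. With doxycycline against untreated, the number of members called was 8 to 10 in KO and 9 to 10 in WT cells under all settings run. The number called in untreated KO against WT (5) was 8 with only these groups fitted, that in retinoic acid KO against WT (6) was 3 with only these groups fitted, and that in the difference between retinoic acid responses (6) was 3 on log2(TPM + 1) and 3 to 7 with a library left out. Counts over all genes moved by more than 1.5 times for untreated KO against WT (5369; DESeq2 3429, log2(TPM + 1) 3328), retinoic acid KO against WT (6936; DESeq2 4267), the difference between doxycycline responses (3425; DESeq2 1996, length offsets 1983, log2(TPM + 1) 1812) and that between retinoic acid responses (3157; DESeq2 1747, length offsets 1759, log2(TPM + 1) 1983).

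With the median of all genes moved by the scaling, direction changed on log2(TPM + 1) in retinoic acid against untreated for Slc2a3 (0.33 in KO, 0.51 in WT), Hk1 (0.10, 0.39), Aldoa (0.36, 0.13), Pgk1 (0.44, 0.087), and in KO for Aldoc (0.10) and Ldha (0.47). With total counts only it changed for Slc2a3 (0.12 in KO, 0.32 in WT), in WT for Hk1 (0.22), and in KO for Aldoa (0.16), Aldoc (0.051), Pgk1 (0.24) and Ldha (0.27). With a library left out, WT Slc2a3 ran from -0.088 to 0.00069 (highest without retinoic acid WT replicate 1) and KO Ldha from -0.15 to 0.014 (highest without retinoic acid KO replicate 1). In retinoic acid KO against WT, where neither gene was called, Pfkp was 0.011 with DESeq2 size factors, 0.0082 with upper-quartile factors, 0.014 with the DESeq2 test, 0.020 with length offsets, 0.051 on log2(TPM + 1), 0.0066 with total counts and -0.13 to 0.13 with a library left out (above 0 without WT replicate 2 and without KO replicate 1, where it was 0.021), and Hk1 was -0.0064 with no filter, -0.0083 without chromosome 1 genes and -0.026 to 0.068 with a library left out (lowest without WT replicate 1). Aldoc with doxycycline in WT ran from -0.53 to 0.083 with a library left out. The difference between doxycycline responses of Pdk1 was 0.035 with upper-quartile factors, 0.0029 with total counts and -0.051 to 0.0023 with a library left out, and that between retinoic acid responses of Hk2 was -0.21 to 0.010. The second Aldoa entry (Aldoa_second_ID), never called in the main test, ran with a library left out from -1.51 to 0.18 in doxycycline KO against WT, from -1.67 to 0.0075 with doxycycline in KO, from -0.031 to 1.13 with doxycycline in WT, and from -0.96 to 0.20 in the difference between retinoic acid responses.

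The labels number the libraries of each group 1 and 2. Deviations of same-numbered libraries correlated between -0.109 and 0.0765 across pairs of groups. These values cover all genes tested, including those with few counts, where counting error is large. They therefore cannot decide whether same-numbered libraries share more than a number. With the replicate block 6 members were called in untreated KO against WT (5 without) and 8 with retinoic acid in KO cells (7 without); the other 7 comparisons had 10, 6, 9, 10, 8, 6 and 6 members called, as without it. Of the 10 genes, Aldoc had the fewest counts (100 to 436 per library) and the widest errors; the part of depth in its spread was not tested.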
